A study of Homo sapiens with 2 samples.

Results

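RAB GTPases are small switch proteins that mark membranes and steer vesicles between them. The family was taken here from the 36289 probe sets with a value in the deposited data. It holds each set whose annotation names exactly 1 gene with a symbol of RAB, a number and, where present, a letter. Any probe set of the array without a value there was not seen, so a gene may have further sets. This rule found 95 probe sets of 51 genes, among 29461 probe sets of 16692 genes measured in all. The rule uses names only and no measured value. The RNA came from an Epstein-Barr virus (EBV) transformed B-lymphoblastoid line, measured on 2 arrays that the labels call replicate 1 and replicate 2 of 1 group. The sample titles spell the line GM06690 and the growth protocol GM06990, and no genotype, treatment or time distinguishes the arrays. The cells were grown in RPMI1640 with fetal calf serum, penicillin-streptomycin and L-glutamine. The labels do not say whether each replicate was a culture of its own, so their spread may be purely technical, and with 1 group no test between conditions exists.

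A RAB protein cycles between a GDP-bound form held in the cytosol and a GTP-bound form on a membrane, where it recruits effectors such as tethers, motors and lipid kinases. Exchange factors load GTP, GTPase-activating proteins end the signal, and escort and dissociation-inhibitor proteins carry the lipid-modified RAB to and from membranes. In B cells the same machinery serves the uptake of antigen, its delivery to the compartments that load MHC class II molecules, and the secretion of immunoglobulin.

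Signals are log2 RMA intensities of Human Genome U133 Plus 2.0 arrays. A gene was called above background when its signal exceeded, on each array, the 95th percentile of signals of 85 genes known from other tissues, which was 5.81 on replicate 1 and 5.79 on replicate 2. A gene with several probe sets was represented by the set with the highest mean. Probe sets differ in how strongly they bind, so a signal shows whether a transcript was seen and how well the arrays match, not its amount relative to another gene. A gene that was not above background may still be transcribed, and in RNA from many cells fewer cells with a transcript and less of it per cell cannot be told apart. The labelled cell type fitted its markers: all 7 measured B-lineage genes were above background, from CD22 (8.96 ± 0.06, SD, n = 2) to HLA-DRA (14.23 ± 0.03, SD, n = 2). Of 5 T-cell, 3 NK-cell, 5 myeloid and 4 epithelial or stromal markers none was, and HBB (6.17 ± 0.24, SD, n = 2) was the 1 of 4 erythroid and megakaryocyte markers that was.

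Most RAB genes were detected. Of the 51 RAB genes 33 (64.7%) were above background on both arrays, against 51.4% of all measured genes, and no RAB gene exceeded the level on 1 array only. By probe sets the counts were 63 of 95, against 46.6% of all probe sets with 1 gene. As a description of the probe sets and not of amounts, the median signal was 8.16 over the RAB genes and 6.11 over all measured genes, and with the mean over each gene's probe sets it was 7.10 and 5.58. Most calls lay clear of the level: 29 of the 33 genes exceeded it by more than 1 on both arrays and 15 by more than 4. RAB33A (mean 6.67), RAB42 (6.63), RAB3D (6.55) and RAB33B (6.54) exceeded it by less. Their means lay below that of SFTPB (6.74), 1 of the genes from other tissues that set the level. Among the 18 RAB genes not above the level, RAB15, RAB20, RAB32 and RAB6B came within 0.5 of it on at least 1 array.

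RAB genes with several probe sets were above background more often than RAB genes with 1, as were genes overall. Of the 24 RAB genes with at least 2 probe sets 21 were above background (87.5%), against 64.6% of such genes overall. Of the 27 with 1 probe set 12 were (44.4%), against 41% overall. With the mean over a gene's sets in place of the highest, 20 of the 24 were above background (83.3%), against 57.1% of such genes overall. Over all 51 RAB genes that gave 32, against 48.7% of all genes, and RAB3D was the gene lost. The RAB genes had several sets about as often as other genes, in 47.1% and 44% of cases. When the 75th percentile of those other-tissue genes served as the level, 40 RAB genes were above it, against 61.7% of all genes. At the 99th percentile 9 were, against 11.6% of all genes. That level, 10.44 and 10.51, was set by KRT10 (11.19 and 11.29) and MBP (10.30 and 10.36). Without these 2 genes the 99th percentile was 6.39 and 6.34, the RAB count was 33 and the share of all genes 47.9%.

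**Figure D1:**
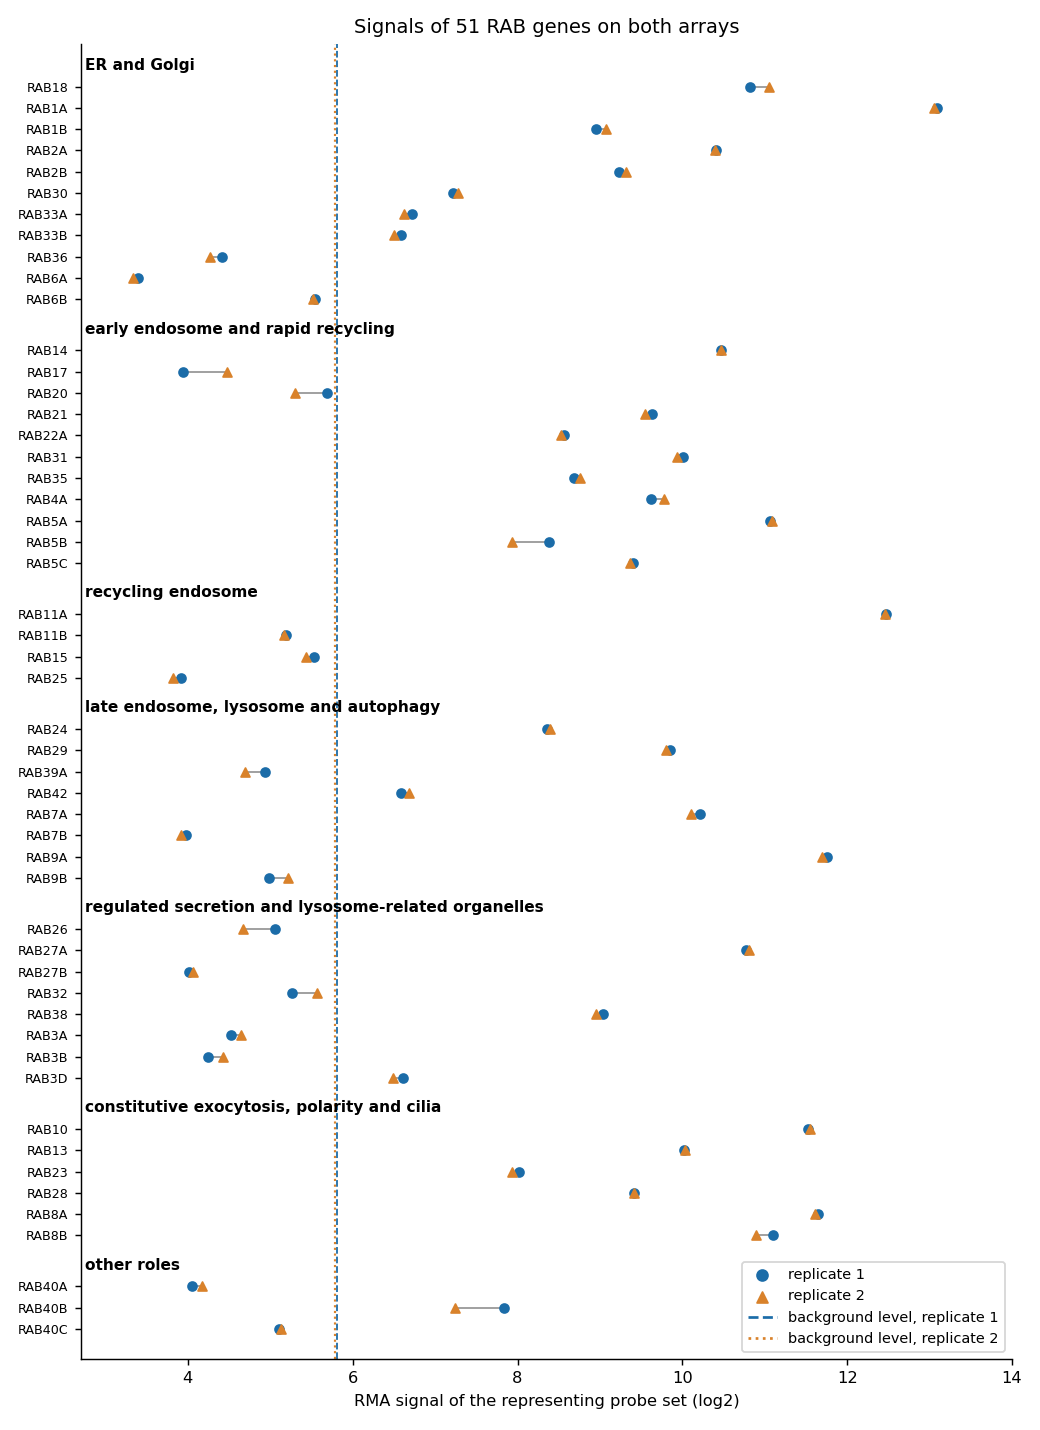
Log2 RMA signal of the representing probe set of each of the 51 RAB genes on replicate 1 (circles) and replicate 2 (triangles), grouped by role, with the background level of each array as a vertical line. All 6 genes assigned to constitutive exocytosis, polarity and cilia lie right of the lines, and in no gene do the arrays fall on opposite sides of them.

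RAB genes of the early secretory route were mostly above background, 8 of 11. For this and the role counts below, the share was 64.7% over all 51 RAB genes and 51.4% over all measured genes. The role groups hold 3 to 11 genes each, and no difference between them was tested. RAB1A and RAB1B control transport from the endoplasmic reticulum (ER) to the Golgi. RAB1A had signals of 13.09 and 13.05, with all 3 of its probe sets above background, and RAB1B had 8.95 and 9.08. RAB2A and RAB2B act at the Golgi and in traffic between the Golgi and the ER. RAB2A reached 10.41 and 10.40 with 5 of 6 probe sets above background, and RAB2B 9.23 and 9.31. RAB18, which works at the ER and at lipid droplets, had 10.82 and 11.05, all 3 sets being above the level.

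The other Golgi members were closer to the level or below it. RAB30, a Golgi protein, had 7.22 and 7.28. RAB33A and RAB33B are Golgi RABs, the second also known from autophagy, and RAB33A had 6.72 and 6.62 and RAB33B 6.58 and 6.51. RAB36 was not above background (4.41 and 4.27), and neither was RAB6B, the brain form of RAB6 (5.54 and 5.51), in any of its 3 sets.

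The RAB6A call rests on a single probe set that names RAB6A alone, which was not above background (3.39 and 3.33). RAB6A directs traffic from endosomes to the Golgi and back to the ER and has near-identical copies. A further 4 probe sets name it together with RAB6D, or with RAB6C and RAB6D, and so fell outside the rule. Of these 3 were above background, with means of 9.94, 9.91 and 6.39, and 1 was not (4.13). These arrays therefore show signal for the group of RAB6A, RAB6C and RAB6D without assigning it to a member.

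Early endosome RABs were detected in 9 of 11 cases. RAB5 proteins govern the fusion of endocytic vesicles with early endosomes, and all 3 genes were above background: RAB5A (11.07 and 11.09), RAB5B (8.38 and 7.94) and RAB5C (9.40 and 9.37). RAB4A, which sends receptors back to the surface by the rapid route, had 9.62 and 9.78, and all 3 of its sets were above the level. RAB14, a RAB of early endosomes and the Golgi, had 10.47 on both arrays. RAB21, known from integrin uptake, had 9.63 and 9.55.

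RAB22A and RAB31 (also known as RAB22B) are close relatives that act in endosome and trans-Golgi traffic, and both were above background, at 8.57 and 8.53 for RAB22A and 10.00 and 9.93 for RAB31. RAB35, a recycling RAB of the plasma membrane and endosomes, had 8.69 and 8.76. The 2 members not above background were RAB17 (3.94 and 4.47), which is known from polarised epithelial cells, and RAB20 (5.69 and 5.30), an endosome and phagosome RAB.

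Of the recycling endosome genes 1 of 4 was above background. RAB11A, which returns cargo from the recycling endosome to the surface, had 12.48 and 12.46, and its second probe set (8.78 and 8.70) was above the level too. Its relatives RAB11B (5.20 and 5.17) and the epithelial RAB25 (3.92 and 3.82) were not above background, nor was RAB15 (5.53 and 5.44), each by 1 probe set.

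Among the late endosome, lysosome and autophagy genes 5 of 8 were above background. RAB7A, which drives the maturation of late endosomes and their fusion with lysosomes, had 10.21 and 10.10 by its highest set. RAB9A, needed for the return of mannose 6-phosphate receptors from late endosomes to the trans-Golgi, had 11.75 and 11.69. RAB24, linked to autophagy, had 8.35 and 8.39, RAB29, a RAB of the trans-Golgi and lysosomes that binds the kinase LRRK2, had 9.84 and 9.81, and RAB42 had 6.58 and 6.68. RAB7B (3.98 and 3.91), RAB9B (4.99 and 5.21) and RAB39A (4.94 and 4.69) were not above background. By this call RAB7A and RAB9A were above background while RAB7B and RAB9B were not. Neither contrast held under every setting: RAB7A lost its call without probe sets ending in _x_at or _s_at, and RAB9B gained one with the level at the 75th percentile.

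Regulated secretion and lysosome-related organelles formed the group with 5 of 8 members not above background. RAB27A, which docks lytic granules and melanosomes, had 10.78 and 10.81, and its 4 probe sets were all above the level, with means from 10.09 to 10.79. All 4 end in _x_at or _s_at, so RAB27A was not measured without such sets. Its paralogue RAB27B was not above background in either of its 2 sets (4.01 and 4.06, 3.34 and 3.56). RAB38, which supplies melanosomes with pigment enzymes, had 9.04 and 8.95, while its partner in that task, RAB32, had 5.26 and 5.56 and was not above background.

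The RAB3 genes, best known from the release of synaptic vesicles and secretory granules, were near or below the level. RAB3D had 6.61 and 6.48 by 1 of its 2 sets. RAB3A (4.52 and 4.65) and RAB3B (4.24 and 4.42) were not above background, nor was RAB26 (5.06 and 4.67), a secretory granule RAB.

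All 6 measured genes assigned to constitutive exocytosis, polarity and cilia were above background. The count depends on that assignment: the epithelial RAB17 and RAB25, not above background, were placed in endosome groups. RAB8A (11.64 and 11.61), RAB8B (11.10 and 10.89) and RAB10 (11.52 and 11.55) carry cargo from the trans-Golgi to the surface. RAB13, known from tight junctions, had 10.02 and 10.04. RAB23, an inhibitor of Hedgehog signalling, had 8.02 and 7.93, and RAB28, linked to cilia and photoreceptors, had 9.42 and 9.41.

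The RAB40 proteins differ from the rest in carrying a SOCS box that joins a ubiquitin ligase. RAB40B was above background by both of its sets, with 7.84 and 7.24 for the higher and 6.25 and 6.13 for the other. RAB40A (4.05 and 4.17) and RAB40C (5.11 and 5.13) were not above background, each by 1 set.

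Both calls occurred within some subfamilies. Of 14 subfamilies with at least 2 measured genes, 7 held both calls: RAB3, RAB7, RAB9, RAB11 with RAB25, RAB27, RAB32 with RAB38, and RAB40. In RAB1, RAB2, RAB5, RAB8, RAB22A with RAB31, and RAB33 every gene was above background, and in RAB6 neither RAB6A nor RAB6B was, with the limit on RAB6A given above. The subfamilies were grouped after the values were known. The count of 7 is a description: it was not set against other gene families, and with 64.7% of RAB genes above background overall it does not show that the members of a subfamily differ more than other RAB genes do.

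The sequences before the RefSeq start sites are printed for RAB27, RAB7 and RAB9, the 3 subfamilies of 2 measured genes that held both calls and had a matched sequence for each gene, so that their CpG content can be read directly. CpG sites, the places where DNA methylation falls, are in capitals. Each is the stretch of 250 bases that ends just before the most upstream start RefSeq lists for the gene, read in the direction of transcription (RefSeq, build GRCh38.p14). It comes from the reference genome, not from these cells.
RAB27A (chr15:55319124-55319373, minus strand): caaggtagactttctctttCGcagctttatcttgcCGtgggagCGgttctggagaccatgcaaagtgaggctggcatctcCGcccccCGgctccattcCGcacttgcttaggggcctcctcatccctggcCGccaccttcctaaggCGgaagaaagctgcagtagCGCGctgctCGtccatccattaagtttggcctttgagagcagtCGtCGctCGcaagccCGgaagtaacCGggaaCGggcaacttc
RAB27B (chr18:54717607-54717856, plus strand): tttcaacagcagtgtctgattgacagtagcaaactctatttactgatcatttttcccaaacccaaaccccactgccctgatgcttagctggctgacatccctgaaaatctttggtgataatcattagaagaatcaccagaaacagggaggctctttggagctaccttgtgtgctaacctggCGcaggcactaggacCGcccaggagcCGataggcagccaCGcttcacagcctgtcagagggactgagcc
RAB7A (chr3:128725933-128726182, plus strand): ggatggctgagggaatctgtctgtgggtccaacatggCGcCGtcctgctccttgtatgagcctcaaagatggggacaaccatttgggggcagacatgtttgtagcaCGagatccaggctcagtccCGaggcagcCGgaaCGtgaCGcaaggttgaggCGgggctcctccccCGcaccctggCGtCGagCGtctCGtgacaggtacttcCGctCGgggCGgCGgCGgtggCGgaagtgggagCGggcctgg
RAB7B (chr1:206003396-206003645, minus strand): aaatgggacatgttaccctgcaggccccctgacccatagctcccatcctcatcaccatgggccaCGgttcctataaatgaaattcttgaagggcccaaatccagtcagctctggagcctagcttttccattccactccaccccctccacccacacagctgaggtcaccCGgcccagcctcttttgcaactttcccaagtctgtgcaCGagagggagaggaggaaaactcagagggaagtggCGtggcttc
RAB9A (chrX:13688878-13689127, plus strand): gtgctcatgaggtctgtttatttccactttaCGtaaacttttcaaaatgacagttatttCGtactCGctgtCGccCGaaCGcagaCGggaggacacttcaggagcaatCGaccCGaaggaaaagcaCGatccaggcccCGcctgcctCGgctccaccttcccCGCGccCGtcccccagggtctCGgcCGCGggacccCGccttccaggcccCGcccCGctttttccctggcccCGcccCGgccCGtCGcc
RAB9B (chrX:103832258-103832507, minus strand): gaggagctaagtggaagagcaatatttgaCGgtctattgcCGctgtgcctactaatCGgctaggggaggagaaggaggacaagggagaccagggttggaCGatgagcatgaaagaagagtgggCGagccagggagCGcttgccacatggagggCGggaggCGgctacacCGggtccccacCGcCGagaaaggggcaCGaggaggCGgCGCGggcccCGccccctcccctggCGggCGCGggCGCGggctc

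RAB27A has 17 CpG sites in this stretch and RAB27B 4. RAB7A has 20 and RAB7B 4, whereas RAB9A has 25 and RAB9B 21. The observed over expected CpG ratio, which corrects for base composition, was 0.79 for RAB27A and 0.25 for RAB27B, 0.78 for RAB7A and 0.22 for RAB7B, and 1.05 for RAB9A and 0.80 for RAB9B. In these 3 pairs the gene above background had the higher ratio, though the RAB9 pair has a CpG-rich stretch in front of both genes. Other subfamilies with both calls ran the other way: the ratio was 0.73 for RAB11A and 0.94 for RAB11B, 0.60 for RAB3D and 0.87 for RAB3A, and 0.77 for RAB40B and 1.13 for RAB40C, the first of each being the gene above background. The remaining members RAB25 (0.38) and RAB40A (0.36) had lower ratios than their relative above background, and RAB3B (0.60) about the same, so the call and the ratio had no common order across subfamilies. The second RefSeq start of RAB27B has a ratio of 0.62.

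Sequence was matched for 42 of the 51 RAB genes. The ratio was above 0.6, a common limit for CpG islands, in 25 of 28 RAB genes above background (89.3%) and in 8 of 14 not above it (57.1%). Over all measured genes with a matched start the shares were 83% of 7201 above background and 45.1% of 5893 not above it. The medians lay nearer together, 0.79 and 0.73 for the RAB genes and 0.84 and 0.52 for all genes. RAB40C (1.13) and RAB11B (0.94) were not above background although their ratios exceeded 0.9, and RAB42 (0.31) and RAB13 (0.44) were above background with low ratios. RAB6A (1.01) counts among the 8 of 14 only by the probe set that names it alone, with the limit given above. No test was run on these shares.

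**Figure D2:**
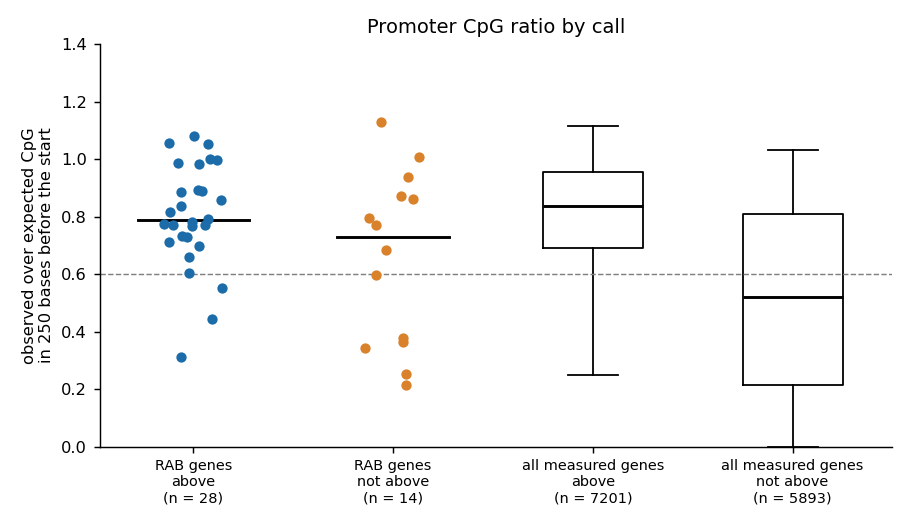
Observed over expected CpG in the 250 bases before the most upstream RefSeq start, for RAB genes (points, with the median as a bar) and for all measured genes (boxes between the quartiles with the median as a line, whiskers at the 5th and 95th percentiles), each with genes above background left of genes not above it. The dashed line marks 0.6, which 25 of 28 RAB genes above background and 8 of 14 not above it exceed.

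Short motifs were searched on both strands of the same stretches. The GC box GGGCGG, which itself holds a CpG, was present in 26 of 28 RAB genes above background and 9 of 14 not above it, against 67.7% and 44.9% of all measured genes and 42.6% of all windows. The E-box CACGTG, which also holds a CpG, was present in 5 of 28, namely RAB21, RAB24, RAB31, RAB4A and RAB5A, and in 0 of 14, against 9.4% and 6.3% of all measured genes and 6.34% of all windows. The letters TATAAA were present in 0 of 28 and in 2 of 14, RAB40A and RAB7B, against 5.35% and 11.9% of all measured genes and 10.7% of all windows. A match describes the letters in this window and says nothing of a factor bound there.

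The call of some RAB genes depended on the probe set. Of the 24 RAB genes with at least 2 sets, 14 had every set above background, 3 had none (RAB3B, RAB6B and RAB27B) and 7 had some (29.2%), against 32.6% of all genes with at least 2 sets. In RAB7A 2 of 6 sets were above background, with means of 10.16 and 10.12, and the other 4 had means of 4.94, 4.73, 3.19 and 3.10. The RAB7A sets above the level both end in _s_at, a suffix for sets that can match several transcripts. Without _x_at and _s_at sets 24 of the 40 RAB genes still measured were above background, against 46.2% of all genes, and RAB7A was not among them. RAB2A had means of 10.40, 9.83, 7.50, 7.40 and 6.44 in the sets above background and 4.06 in the sixth.

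RAB14 had 1 of 3 sets not above background (4.53), as had RAB22A (4.10) and RAB28 (5.41). RAB21 had 1 of 2 (5.10) and RAB3D 1 of 2 (4.61). In RAB27A, by contrast, the 4 sets spanned 10.09 to 10.79, and in RAB31 the 3 sets spanned 8.86 to 9.97. All sets of RAB27A and RAB31 end in _x_at or _s_at, so neither gene was measured without such sets. The values of these genes show how far the call of a gene can rest on the set chosen for it.

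**Figure D3:**
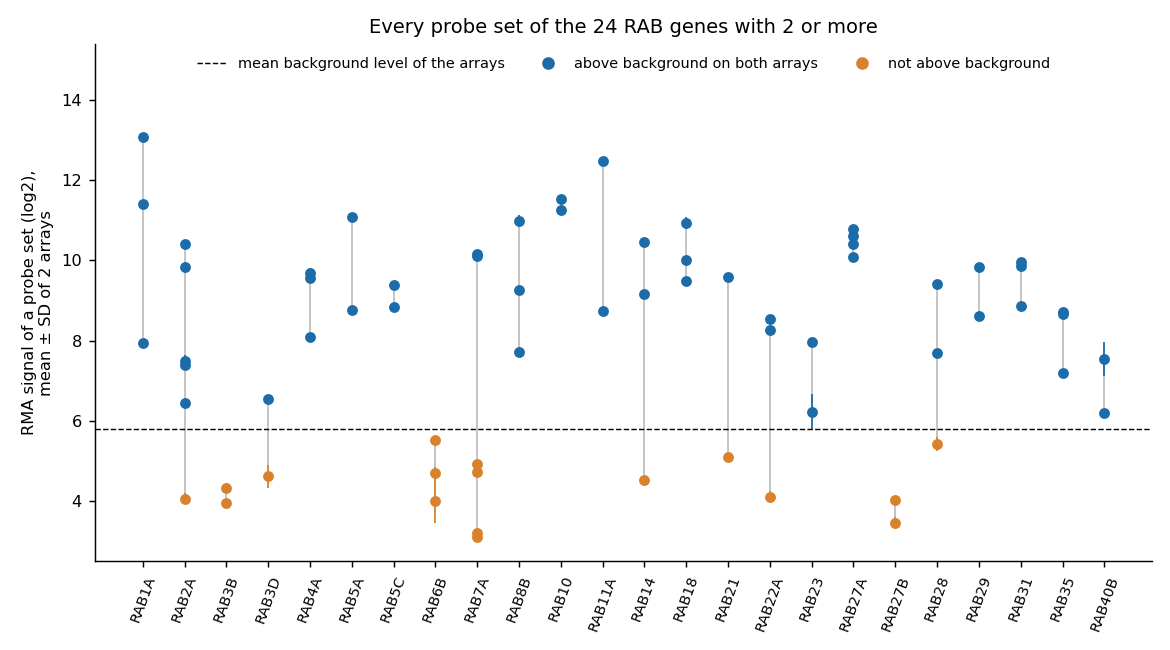
Log2 RMA signal of every probe set of the 24 RAB genes with 2 or more sets, as the mean with the SD of both arrays, in blue where the set is above background on both arrays and in orange where it is not. In 7 genes, among them RAB7A with 4 orange sets and RAB2A with 1, sets fall on both sides of the dashed background level.

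The arrays differed little in RAB genes. Over the 33 RAB genes above background the SD between arrays had a median of 0.05 (log2), the same as over all 8821 genes above background on at least 1 array. The median difference (replicate 2 minus replicate 1) was -0.03 over the RAB genes and -0.02 over all such genes, with 12 RAB genes higher on replicate 2 and 21 on replicate 1, against 3771 and 5035 of all such genes. With a minimum of 0.58 on the log2 scale, 1 of 33 RAB genes differed, against 0.658% of all genes. This was RAB40B, with -0.60 by its higher set and -0.12 by its other set. RAB5B, with 1 set, followed with -0.45. The RAB genes not above background had differences from -0.39 (RAB26) to 0.53 (RAB17).

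**Figure D4:**
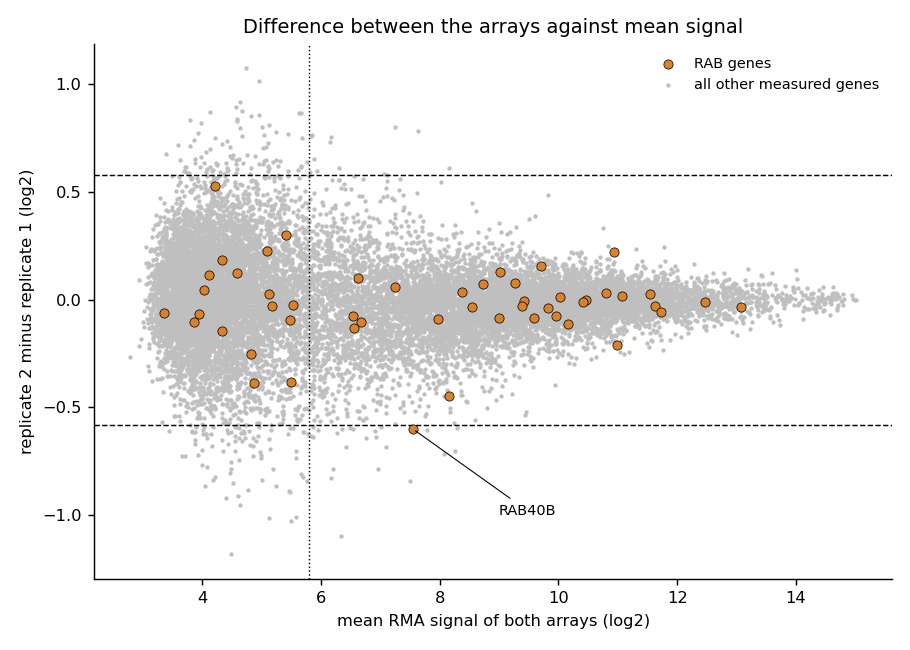
Difference between the arrays (replicate 2 minus replicate 1, log2) against the mean log2 signal, for the 51 RAB genes (orange) and all other measured genes (grey), with dashed lines at a difference of 0.58 either way and a dotted line at the mean background level. RAB40B, at -0.60, is the RAB gene outside the dashed lines.

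Genes that act on RAB proteins were detected at shares between 71.8% and 100%, by the same call, against 51.4% of all measured genes. With the mean over each gene's probe sets, 5 of 6 delivery and prenylation genes and 25 of 39 exchange factors were above background. So were 26 of 36 GTPase-activating genes and 40 of 59 effectors, against 48.7% of all genes. By the highest set, all 6 measured genes of delivery and prenylation were above background. GDI2, which extracts RAB proteins from membranes, had 12.75 and 12.84. CHML, an escort protein that presents new RAB proteins for lipid attachment, had 9.30 and 9.34, with 2 of its 6 sets above the level. The catalytic pair that attaches the lipid, RABGGTA (8.04 on both arrays) and RABGGTB (10.60 and 10.61), was detected. RABIF (9.15 on both arrays), a chaperone for nucleotide-free RAB proteins, and RABAC1 (9.97 and 9.83), a membrane receptor that binds prenylated RAB proteins, were detected as well.

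Of 39 exchange factor genes 28 (71.8%) were above background, against 51.4% of all genes. Among factors for RAB5, GAPVD1 (8.55 and 8.66) was above background, but RIN1 (4.93 and 4.70), RIN2 (3.76 and 3.68) and RIN3 (5.05 and 4.70), which link RAS signals or receptors to RAB5, were not. DENND1A (9.86 and 9.92) and DENND1B (7.21 and 6.85), factors for RAB35, were above background, DENND1B by 1 of 4 sets. Further genes not above the level on both arrays were RAB3IL1 (5.55 and 5.92, above it on replicate 2 alone), DENND2A (3.54 and 3.81), DENND2B (4.64 on both arrays), DENND6B (4.40 and 4.29) and CCZ1 (4.33 and 4.40), a subunit of the RAB7 exchange factor that has a near-identical copy. Its partner subunits MON1A (6.93 and 6.96) and MON1B (8.25 and 7.95) were above background. MON1A and MON1B were named after their values were seen.

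Of 36 GTPase-activating genes 28 (77.8%) were above background, against the same 51.4%. RAB3GAP1 had 10.31 and 10.34, RABGAP1 8.85 on both arrays, RABGAP1L 12.04 and 12.03, USP6NL, which acts on RAB5, 8.93 and 9.03, and EVI5 6.34 and 6.47. RAB3GAP2, the partner subunit of RAB3GAP1, was not above background by the set that names it alone (4.33 and 4.30), while further sets also name AURKAP1 and were not used. The others not above the level on both arrays were EVI5L (5.49 and 5.46), TBC1D2 (4.15 and 4.01), TBC1D16 (4.50 and 4.75), TBC1D30 (5.80 and 5.82), GRTP1 (3.81 and 3.90), SGSM1 (4.50 and 4.53) and SGSM2 (5.92 and 5.77). TBC1D30 and SGSM2 each exceeded it on 1 array.

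Of 59 effector genes 44 (74.6%) were above background, again against 51.4% of all genes. EEA1 (9.35 and 9.33) and RABEP1 (9.06 and 9.16), which tether and fuse early endosomes for RAB5, were above it by every one of their sets, and RABEP2 (6.04 and 6.25), RBSN (8.43 and 8.44) and APPL1 (8.79 and 8.77) were above it too. APPL2 was not (5.70 and 5.51). The next effectors not above the level were RILPL1 (4.61 and 4.51), OSBPL1A, a sterol sensor that binds RAB7 (4.62 and 4.79), RAB11FIP5 (4.15 and 4.26), MLPH (5.44 and 6.08), SYTL2 (5.26 and 5.17), SYTL3 (3.80 on both arrays) and SYTL4 (4.35 and 4.25).

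Effectors of RAB27 and RAB3 were mostly not above background, although RAB27A and RAB3D themselves were. The effectors were sorted by the RAB they are linked to, directly or within a complex, a grouping made after the values were seen. Then 6 of 7 RAB5, 8 of 9 RAB7, 5 of 6 RAB11 and 3 of 3 RAB6 effectors were above background, but 1 of 7 RAB27 and 1 of 3 RAB3 effectors. Most of the RAB7 group is VPS11, VPS16, VPS18, VPS33A, VPS39 and VPS41. These are subunits of 1 complex and do not stand for separate effectors that each bind RAB7. The share was 74.6% over all 59 measured effectors and 51.4% over all measured genes. Of the 8 listed RAB27 effectors SYTL1 was not measured. The RAB3 effector above background was RIMS2, and RIMS1 and RPH3A were not. The RAB27 effector above it was UNC13D (6.79 and 6.95), which primes cytotoxic granules for release. MLPH, which joins RAB27A on melanosomes to myosin Va, exceeded the level on replicate 2 alone, and SYTL2, SYTL3, SYTL4, SYTL5 (3.64 and 3.73) and EXPH5 (4.20 and 5.28) were not above it on any array. MYO5A, the myosin itself, was above background (9.19 and 9.27). The difference between these groups was not tested.

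**Figure D5:**
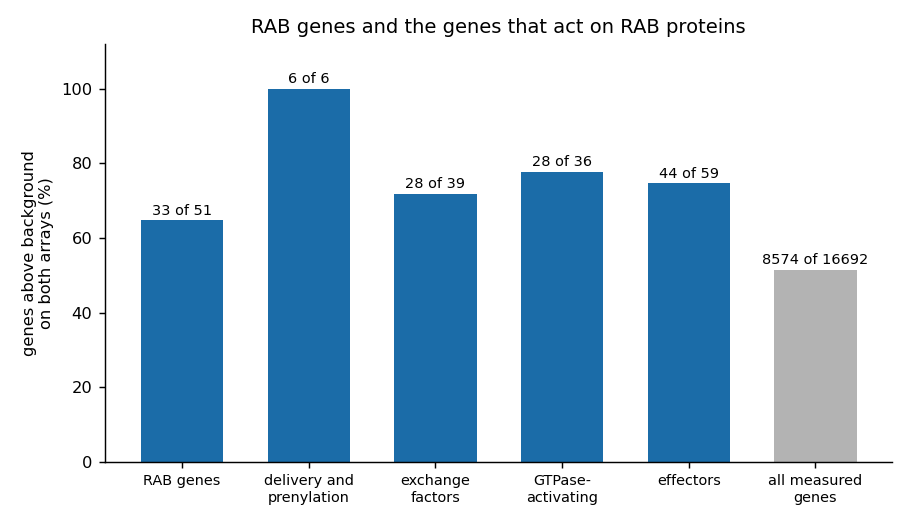
Percent of genes above background on both arrays among the RAB genes, the 4 lists of genes that act on RAB proteins and all measured genes, with the counts above the bars. The RAB bar stands at 64.7%, the 4 lists between 71.8% and 100%, and all measured genes at 51.4%.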

How the data were processed

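The authors deposited 1 intensity per probe set and array, made with RMA, per the submitters' processing notes; its version and a genome build are not given in the sources used here. The intensities ran from 6.29 to 33093, so they were read as linear and log2 transformed. Only 2 arrays were run, which limits the precision. Of 36289 probe sets, 29493 had 1 symbol in the platform annotation, 1407 several and 5389 none; 29461 were matched by Entrez ID to a RefSeq gene table (GRCh38.p14), from which symbols were updated, and these named 16692 genes. Sets with another number of symbols were used for no gene. Of 98 listed tissue-restricted genes 85 were measured and set the background level. All RAB genes are named; of each regulator list all members (delivery and prenylation) or the first 6 measured plus up to 8 not above background, in written order. Members and lists were chosen with earlier results of these data known. RAB symbols outside those 51 were not analysed here, apart from the calls of probe sets that name a RAB gene with another symbol. Alternatives covered the level, the probe set choice, normalization, each array left out and the minimum difference. Python 3.11.15, numpy 2.4.6, pandas 2.3.3 and statsmodels 0.14.6 (loess) were used.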

Additional observations from a re-analysis of the deposited data

How the results depend on the processing

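The count of RAB genes above background ranged from 24 (of 40 genes measured without probe sets ending in _x_at and _s_at) to 40 (75th percentile), apart from 9 at the 99th percentile, and it was 33 without either array. At the 99th percentile, a level set by KRT10 and MBP, 12 RAB probe sets, 2 delivery and prenylation, 3 exchange factor, 1 GTPase-activating and 0 effector genes were above it and 0 RAB genes differed between the arrays; without these 2 genes, left out after seeing the data, the same percentile gave 61 probe sets and 6, 26, 26 and 38 genes. Without _x_at and _s_at sets, which left 53 RAB sets, 30 were above background and the median RAB signal was 7.39; RAB7A lost its call and RAB6B gained one. With the mean over probe sets the median was 7.10, RAB3D lost its call and 0 genes differed between the arrays. That count was also 0 with a further quantile normalization, with a loess curve removed and with a minimum of 1, against 1 as reported (RAB40B at -0.60, close to the minimum of 0.58). At the 75th percentile RAB11B, RAB15, RAB20, RAB32, RAB40C, RAB6B and RAB9B were gained. Of the 33 genes, 31 kept their call wherever they were measured in every setting except the 99th percentile, and of the 18 not above background 11 did so in every setting. No paired analysis was possible because there is only 1 group. The arrays' number limits the precision, and signals near background carry the larger spread.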

Other observations

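Some effectors best known from other tissues were above background. MYO5B (7.65 and 7.13 on the arrays, by 1 of 3 probe sets) and MYO5C (7.02 and 6.86), the myosins that carry RAB11 and RAB8 or RAB10 vesicles in epithelial cells, exceeded the level, while the epithelial RAB25 and RAB17 and the markers EPCAM (3.98 and 3.78) and KRT8 (5.19 on both arrays) did not. RIMS2, a scaffold of the presynaptic active zone that binds RAB3, had a mean of 6.10 ± 0.14 (SD, n = 2) by 1 of 2 sets, whereas RIMS1 (3.88 and 3.79) and RPH3A (3.97 and 3.48) were not above background. These genes were picked after their values were seen. The RIMS2 mean lay close to the level and below the means of TNNT3 (6.28) and SFTPB (6.74), which are among the genes from other tissues. RIMS2 was also below the 99th percentile without KRT10 and MBP (6.39 and 6.34).

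Probe sets that name a RAB gene together with another symbol fell outside the rule, and 7 of 9 were above background. The share was 46.6% over all probe sets with 1 gene, and it was not computed over all 1407 sets with several symbols. Several of the 9 are the RAB6 sets given above, so they do not stand for 9 separate genes. Beside the RAB6 sets, both sets that name RAB34 with NARR were above background (means 6.50 and 6.16), as were those that name RAB4B with MIA-RAB4B (7.61) and with EGLN2 and RAB4B-EGLN2 (6.17). The set that names RAB43 with ISY1-RAB43 was not (5.46).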
